A study of Danio rerio with 7 samples.

Results

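Vitamin A (retinol) travels in blood bound to a carrier protein and is turned inside cells into retinoic acid, a ligand of nuclear receptors. Retinol dehydrogenases make retinal, retinaldehyde dehydrogenases make retinoic acid from it, and cytochrome P450 enzymes of the CYP26 family break retinoic acid down. In the zebrafish heart, retinoic acid synthesis by aldh1a2 is known to be switched on in epicardium and endocardium after injury and to be needed for cardiomyocyte proliferation. The genes described here are 10 names of this pathway: the carrier RBP4, its receptor stra6, the enzymes rdh10, dhrs3, ALDH1A2, aldh1a3, cyp26a1 and cyp26b1, and the intracellular binding proteins crabp1 and crabp2. All gene IDs whose name equals one of these, with or without a final paralog letter, were taken, which gave 14 of the 31388 gene IDs in the table. RDH10, DHRS3, CRABP1 and CRABP2 had 2 IDs each, and since the name table gives both the same symbol, they are told apart by ID and not assigned to the a or b paralog.

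RNA came from cells sorted by mCherry from the ventricular apex of adult zebrafish, 3 to 9 months old, after cryoinjury, a freezing injury of the heart. All fish carried postnb:CreERT2 with the reporter ubb:loxP-GFP-loxP-mCherry and were treated with 10 µM 4-OHT (4-hydroxytamoxifen) at 3 and 4 days post injury (dpi), so cells that used the periostin gene postnb in that window, and their descendants, stay mCherry-positive. The 2 groups differ in stage: 4 pools were taken at 7 dpi (replicates 1 to 4) and 3 pools at 60 dpi (replicates 1, 2 and 4). Each pool combined 3 to 5 hearts and gave 0.2 to 0.6 ng of RNA for amplification, and no uninjured or unlabelled sample was analysed here. The label follows 1 promoter and 1 window, and no library of single cells was analysed here, so fewer cells of a type and less RNA per cell cannot be told apart in any value below. Levels are TPM, length-corrected transcript shares that sum to the same total in every library. They keep no read depth, so the depth behind a value is unknown and a gene listed at 0 is not shown to be absent. p-values are from limma on log2(TPM + 1), adjusted over the 15130 genes with at least 1 TPM in at least 3 libraries. They weigh the difference between the stages against the spread among pools of the same stage.

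The pools were not equally complete, which touches low genes most. Gene IDs with at least 1 TPM numbered 9844 to 15431 at 7 dpi and 10840 to 14061 at 60 dpi, fewest in replicate 4 of each group. Periostin marks activated fibroblasts of the injured heart, and the 14 fibroblast IDs, led by FN1 and col1a1a, summed to 7102 to 9684 TPM at 7 dpi and 7744 to 9921 TPM at 60 dpi, none of them at 0 throughout; of the 14 tested, 3 rose and 2 fell. The 23 macrophage and leukocyte IDs, led by MFAP4 and cd68, summed to 3906 to 6466 TPM at 7 dpi but 730 to 1510 TPM at 60 dpi. Of the 22 tested, 16 fell and none rose, and none was at 0 in every library. Cardiomyocyte IDs, led by MYL7 and TNNT2, summed to 397 to 922 TPM at 7 dpi and to 404, 4853 and 3687 TPM in the 3 pools at 60 dpi. The part of these cell types in the results below was not tested, except where a value is given.

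RBP4 rose at 60 dpi and was the single member past the threshold. Of the 14 IDs 10 could be tested, 1 rose and none fell, against 3.20% of all tested genes called higher and 3.68% called lower. At an unadjusted p under 0.05, 2 were higher and none lower, against 9.60% and 12.4% of all tested genes. The tested members had a median log2 fold change of 0.82, where all tested genes had -0.04; 8 of the 10 were above 0, against 48.3% of all tested genes. In 2 of the 10 tested IDs every pool at 60 dpi was above every pool at 7 dpi, against 10.3% of all tested genes. With CYP26A1, which lay below the TPM minimum, it was 3 of the 14 IDs, against 6.94% of the 23319 IDs above 0 in some library. ALDH1A3, at 0 in every library, is among the 14 but not among the 23319. IDs without a symbol took 20.2 to 40.0% of TPM at 7 dpi and 15.8 to 19.2% at 60 dpi. Rescaled over the IDs with a symbol, the median of all tested genes was -0.26. Of all calls 31.6% were then higher at 60 dpi, where the deposited scale gave 46.5%. Every tested member also had a lower log2 fold change on that scale, RBP4 3.45 and DHRS3 ENSDARG00000044803 -0.21. The -0.26 is therefore not to be set against the member median of 0.82. RBP4 was the 1 member called on either scale. The other 9 tested members did not pass, and their intervals are wide.

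**Figure D1:**
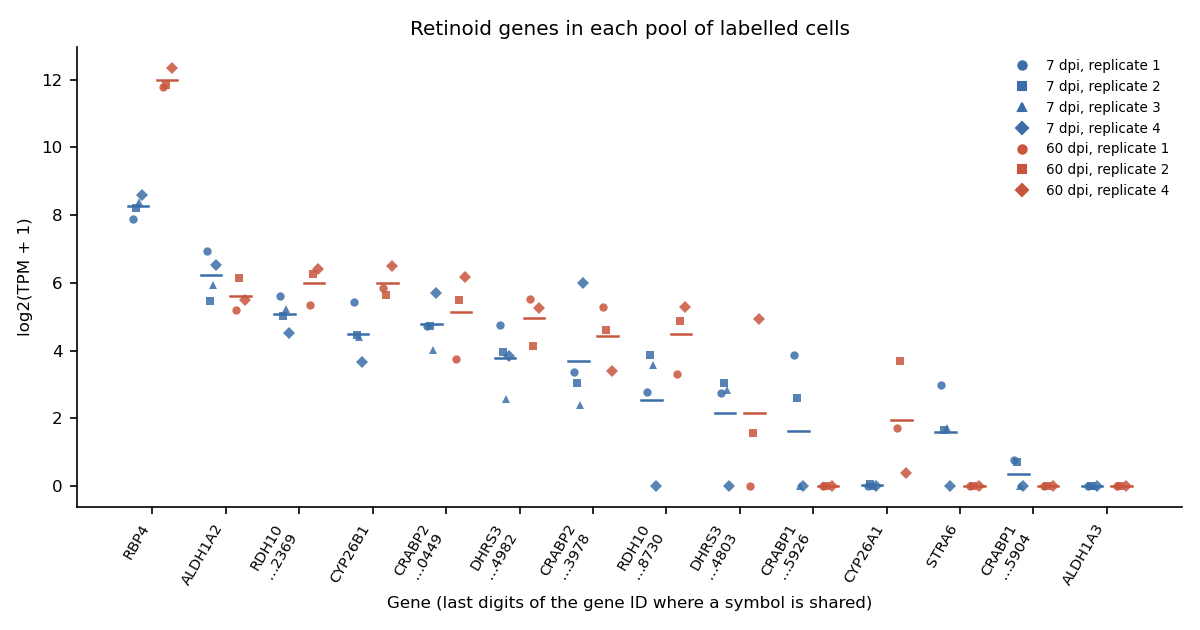
Level of each of the 14 retinoid gene IDs, as log2(TPM + 1), in each of the 4 pools at 7 dpi (blue) and 3 pools at 60 dpi (red); bars are group means on that scale. RBP4 stands above the other members in every pool, and its 60 dpi points lie clear of its 7 dpi points.

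RBP4 (ENSDARG00000101199), the secreted retinol carrier of blood, came first in level and in change. It measured 236, 296, 335 and 383 TPM in the 4 pools at 7 dpi. At 60 dpi it measured 3540.4, 3634 and 5191 TPM in replicates 1, 2 and 4. The groups lay far apart, and the lowest pool at 60 dpi was above the highest at 7 dpi. The means were 312 ± 62.4 TPM (SD, n = 4) and 4122 ± 927 TPM (SD, n = 3). The log2 fold change was 3.72 ± 0.26 (SE), or 13.2-fold with a 95% confidence interval of 8.85 to 19.5 on the TPM + 1 scale (limma adjusted p = 3.57e-05). Its p-value was the 3rd smallest of the 15130 tested genes, and its gain in mean TPM was the 9th largest. In order of level it stood between places 255 and 487 among all gene IDs in the pools at 7 dpi and between places 24 and 39 at 60 dpi. RBP4 took 0.0312% ± 0.00624 of all TPM at 7 dpi (SD, n = 4) and 0.412% ± 0.0927 at 60 dpi (SD, n = 3).

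**Figure D2:**
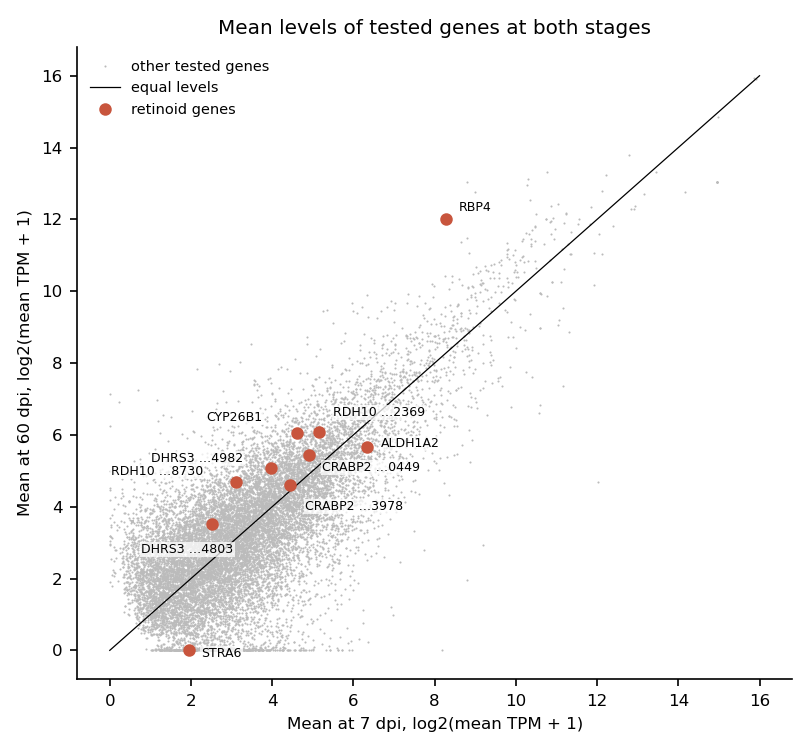
Mean level at 7 dpi (x axis) against mean level at 60 dpi (y axis), both as log2(mean TPM + 1), for all 15130 tested genes (grey) and the 10 tested retinoid genes (red); the line marks equal levels. RBP4 lies far above the line among abundant genes, while the other members lie in the main cloud or, for STRA6, on the floor at 60 dpi.

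Several measurements set RBP4 beside the cell types in the pools. Relative to the summed fibroblast IDs in the same library, a ratio that scaling does not change, RBP4 amounted to 3.32 to 5.17% at 7 dpi and 35.7 to 59.2% at 60 dpi. Relative to the summed epicardial IDs it amounted to 4.76 to 10.4% and 64.4 to 86.0%. Epicardial IDs themselves, led by krt8 and ANXA2, summed to 2980.4 to 4960 TPM at 7 dpi and 5179 to 6037 TPM at 60 dpi; of 14 tested 3 rose and none fell. The liver is the main source of circulating RBP4. Among its 12 marker IDs, 5 were listed at 0 in all 7 libraries: fabp10a, apoa2, FGB, fga and serpina1. Others were detected. At 7 dpi tfa measured 249 to 438 TPM and hp 6.17 to 16.3 TPM. At 60 dpi they measured 86.2 to 270 and 7.72 to 15.3 TPM. Of the 12 hepatocyte IDs 3 could be tested and none passed (none at an unadjusted p under 0.05 either); their sum ran from 265 to 453 TPM at 7 dpi and from 94.0 to 286 TPM at 60 dpi, nearly all of it tfa. Cardiomyocyte IDs summed to 404, 4853 and 3687 TPM in 60 dpi replicates 1, 2 and 4, where RBP4 measured 3540.4, 3634 and 5191 TPM. At 7 dpi they summed to 397 to 922 TPM, with RBP4 at 236 to 383 TPM. The part of cardiomyocytes in the RBP4 result was not tested.

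The genes whose profile over the 7 libraries was most like that of RBP4 were krt91, FOSL1 and SYT4. Likeness was measured as the root-mean-square difference of log2(TPM + 1) after each gene was centred on its own mean, and came to 0.32, 0.33 and 0.35. krt91, a keratin gene, went from a mean of 27.9 ± 7.15 TPM at the early stage to 419 ± 83.5 TPM at the late one. FOSL1, an AP-1 transcription factor gene, had 67.2 ± 5.37 and 674 ± 61.6 TPM. SYT4, a synaptotagmin gene, was far lower, with 0.022 ± 0.026 and 10.3 ± 3.7 TPM (SD, n = 4 and 3). Its early values lie at the floor of log2(TPM + 1), so its likeness to RBP4 depends on the added 1.

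STRA6 (ENSDARG00000051874), the membrane receptor that takes retinol from RBP4, was low at 7 dpi and listed at 0 in every pool at 60 dpi. At 7 dpi it measured 6.97, 2.14, 2.27 and 0 TPM in replicates 1 to 4. The groups overlapped through 7 dpi replicate 4, the library with the fewest detected genes. The log2 fold change was -1.59, with a 95% confidence interval of -3.22 to 0.04 (limma adjusted p = 0.24). Of all tested genes 2.49% were listed at 0 in every pool at 60 dpi. Such genes, STRA6 among them, reached the TPM minimum through pools at 7 dpi alone, so their direction was fixed in advance. STRA6 did not pass, and its lower mean at 60 dpi is not read as a change opposite to that of its ligand RBP4.

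The RDH10 IDs, which encode the enzyme that oxidises retinol to retinal, had higher means at 60 dpi without passing. ENSDARG00000012369 measured 47.4, 31.3, 36.6 and 21.7 TPM at 7 dpi, against 39.6, 75.2 and 83.6 TPM at 60 dpi. The pools at 60 dpi overlapped with those at 7 dpi through their replicate 1. Its log2 fold change was 0.91 (95% confidence interval -0.02 to 1.85, limma adjusted p = 0.238). ENSDARG00000058730 measured 5.79, 13.6, 11.0 and 0 TPM at 7 dpi, against 8.83, 28.2 and 38.0 TPM at 60 dpi, also with its lowest 60 dpi value in replicate 1. Its log2 fold change was 1.93 (95% confidence interval -0.14 to 4.00, limma adjusted p = 0.26). The first ID was the more abundant one in 7 of 7 libraries.

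DHRS3 encodes an enzyme that works against RDH10 and reduces retinal back to retinol. ENSDARG00000044982 measured 26.2, 14.7, 4.96 and 13.3 TPM at 7 dpi, against 44.5, 16.7 and 37.1 TPM at 60 dpi. Its groups overlapped, and the log2 fold change of 1.18 did not pass (95% confidence interval -0.16 to 2.52, limma adjusted p = 0.288). ENSDARG00000044803 measured 5.66, 7.22, 6.10 and 0 TPM at 7 dpi, against 0, 1.99 and 29.4 TPM at 60 dpi. At 60 dpi 1 pool alone, replicate 4, carried its mean. Its log2 fold change was 0.02 with an interval from -2.62 to 2.66 (limma adjusted p = 0.996) and turned to -1.36 without that pool. The first ID was the more abundant in 6 of 7 libraries.

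**Figure D3:**
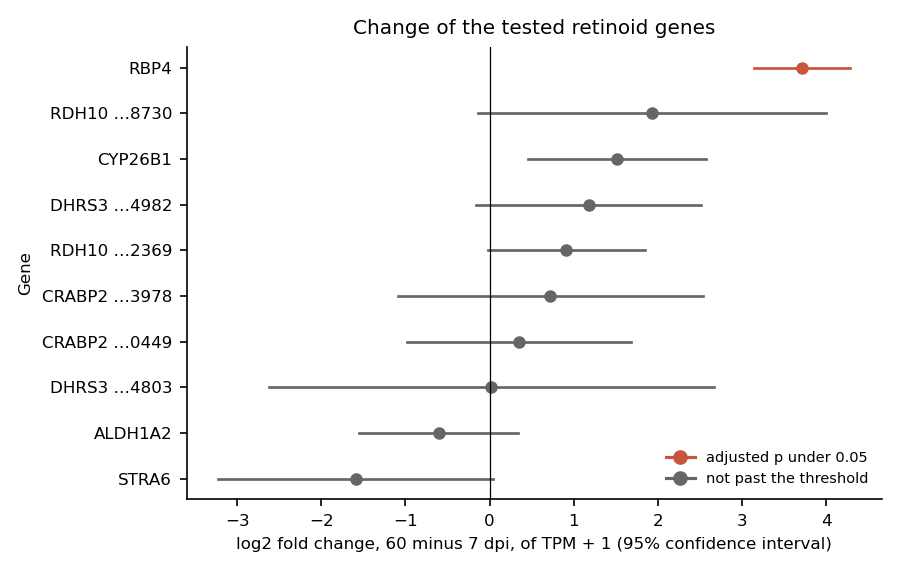
log2 fold change of TPM + 1, 60 minus 7 dpi, for the 10 tested retinoid gene IDs, with 95% confidence intervals from limma; red marks an adjusted p under 0.05. The interval of RBP4 runs from 3.15 to 4.29; CYP26B1 is the other gene whose unadjusted interval lies above 0, and the interval of DHRS3 ENSDARG00000044803 is the widest.

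ALDH1A2 (ENSDARG00000053493), the main enzyme of retinoic acid synthesis in the heart, was well expressed at both stages. It measured 122, 42.8, 60.2 and 91.5 TPM at 7 dpi, against 35.6, 70.0 and 44.0 TPM at 60 dpi. The groups overlapped, and the pools at 7 dpi spread over a wider range than those at 60 dpi. The log2 fold change was -0.61, with a 95% confidence interval of -1.55 to 0.34 (limma adjusted p = 0.457). After RBP4 it was the most abundant member at 7 dpi, while at 60 dpi RDH10 (ENSDARG00000012369) and CYP26B1 had higher means. ALDH1A3 (ENSDARG00000076933), a related synthesis enzyme, was listed at 0 in all 7 libraries.

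CYP26B1 and CYP26A1, whose enzymes clear retinoic acid, were higher in every pool at 60 dpi than in any at 7 dpi. CYP26B1 did not pass, and CYP26A1 was not among the tested genes. For CYP26A1 the nearest pools of the stages were at 0.32 and 0.05 TPM, both near 0. CYP26B1 (ENSDARG00000077121) measured 42.0, 21.0, 19.9 and 11.6 TPM at 7 dpi, against 57.1, 48.6 and 89.8 TPM at 60 dpi. The groups did not overlap, which held for 10.3% of all tested genes in this direction. Its log2 fold change was 1.52 ± 0.49 (SE), with a 95% confidence interval of 0.46 to 2.58, and did not pass (limma adjusted p = 0.0872, unadjusted p = 0.00885). It passed in 2 of 18 alternatives: without 7 dpi replicate 1, its highest pool at that stage (limma adjusted p = 0.0476), and with library quality weights (0.0458). In the other 16 it did not pass, with limma adjusted p of up to 0.229. CYP26A1 (ENSDARG00000033999), a gene that retinoic acid itself induces, was listed at 0 in 7 dpi replicates 1, 3 and 4 and at 0.05 TPM in replicate 2. At 60 dpi it measured 2.31, 11.9 and 0.32 TPM. This ID lay below the TPM minimum. Of the 23319 IDs above 0 in some library, 6.94% had every 60 dpi pool above every 7 dpi pool. Among the 8189 IDs below the minimum the share was 0.733%. That set by definition leaves out IDs with at least 1 TPM in all 3 pools at 60 dpi, so its share is low in advance. With no minimum the log2 fold change of CYP26A1 was 1.92 (limma adjusted p = 0.297).

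The level of the synthesis gene relative to the clearance gene differed in these pools. ALDH1A2 stood at 2.92, 2.04, 3.02 and 7.86 times the TPM of CYP26B1 at 7 dpi and at 0.624, 1.44 and 0.49 times at 60 dpi. Every pool at 7 dpi had more ALDH1A2 than CYP26B1, and at 60 dpi replicate 2 alone did. The ratio does not depend on how libraries are scaled, but the pair was chosen after its values were seen, so no test is given. The counts that follow used differences of log2(TPM + 1), which unlike the ratio can shift with library scaling. Among 7004 genes with a mean of at least 10 TPM, 29.3% had a level relative to ALDH1A2 that did not overlap between the stages. In 22.7% it did not overlap and was higher at 60 dpi. Of the 21 pairs among the 7 members other than RBP4 with a mean of at least 10 TPM, 2 had ratios that did not overlap between the stages, this one and that of ALDH1A2 to RDH10 (ENSDARG00000012369). The latter was 2.58, 1.37, 1.64 and 4.21 at 7 dpi and 0.899, 0.931 and 0.526 at 60 dpi.

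**Figure D4:**
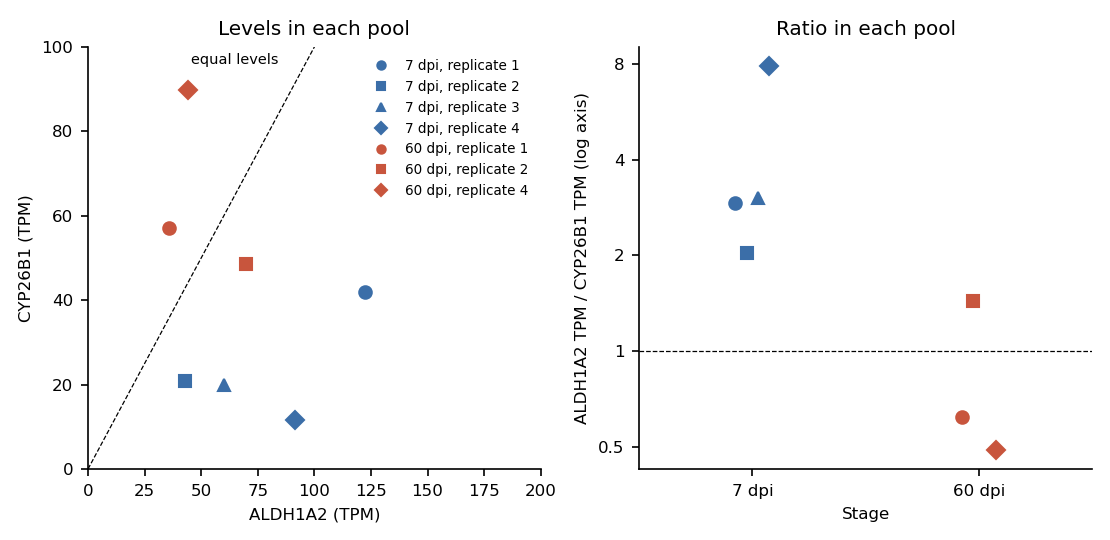
Left, CYP26B1 against ALDH1A2 in TPM in each pool, with the dashed line at equal levels; right, the ratio of ALDH1A2 to CYP26B1 TPM on a log axis. The 4 pools at 7 dpi (blue) have ratios of 2.04 to 7.86 and the 3 pools at 60 dpi (red) ratios of 0.49 to 1.44.

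The CRABP proteins bind retinoic acid in the cell; CRABP2 carries it to nuclear receptors. CRABP2 ENSDARG00000030449 measured 25.3, 25.4, 15.3 and 50.6 TPM at 7 dpi, against 12.4, 44.4 and 71.3 TPM at 60 dpi. CRABP2 ENSDARG00000073978 measured 9.40, 7.27, 4.23 and 62.1 TPM at 7 dpi, against 37.9, 23.2 and 9.43 TPM at 60 dpi. Both overlapped between the stages. At 7 dpi both were highest in replicate 4 and lowest in replicate 3, while at 60 dpi the first was lowest in replicate 1 and the second in replicate 4. Their log2 fold changes were 0.35 (95% confidence interval -0.98 to 1.68) and 0.72 (-1.09 to 2.53), with limma adjusted p of 0.804 and 0.679. The first ID was the more abundant in 5 of 7 libraries. CRABP1 was listed at 0 in all 3 pools at 60 dpi under both of its IDs. At 7 dpi ENSDARG00000045926 measured 13.7 and 5.09 TPM in replicates 1 and 2 and 0 in the others. ENSDARG00000035904 measured 0.72 and 0.62 TPM in those same pools and 0 in the others. Neither reached the TPM minimum in enough libraries, and with no minimum their limma adjusted p was 0.53 and 0.541.

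Of the 14 IDs 7 had at least 1 TPM in all 7 libraries. Between 7 and 11 did so per pool at 7 dpi, fewest in replicate 4, and 9 or 10 at 60 dpi. Summed over all members, the level was 535 ± 73.4 TPM at 7 dpi and 4442 ± 1001 TPM at 60 dpi (SD, n = 4 and 3). RBP4 made up 43.6 to 67.6% of that sum at 7 dpi and 91.9 to 93.7% at 60 dpi. Without RBP4 the sum was 161 to 306 TPM at 7 dpi and 238 to 403 TPM at 60 dpi, ranges that overlap.

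For members with a mean of at least 10 TPM, the 3 genes of most like profile over the 7 libraries were also listed. For ALDH1A2 they were HIGD2A, SALL1 and CD2AP, at root-mean-square differences of 0.16, 0.18 and 0.19. For CYP26B1 they were RTCA, OSER1 and NABP1 (0.15, 0.19 and 0.19). RDH10 ENSDARG00000012369 was nearest to PAX7, TBCB and ston2 (0.11, 0.18 and 0.18), and RDH10 ENSDARG00000058730 to GMPR, tars3 and cdk5rap1 (0.28, 0.30 and 0.35). DHRS3 ENSDARG00000044982 was nearest to RBM19, ccpg1 and PANK4 (0.36, 0.39 and 0.41). CRABP2 ENSDARG00000030449 was nearest to ARHGAP42, ddx10 and mhc1zda (0.26, 0.27 and 0.27), and CRABP2 ENSDARG00000073978 to tmpoa, GREB1L and KCNK18 (0.38, 0.45 and 0.45). The last 3 were low and uneven at 7 dpi, with 4.75 ± 6.61, 2.98 ± 3.95 and 2.95 ± 5.9 TPM (SD, n = 4). Their likeness can therefore rest on 1 pool and on the added 1. None of these 21 nearest genes was a member of the retinoid lists. Those lists held few of the 14049 genes compared, 10 tested members and 60 further tested IDs, so this count says little.

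The wider pathway was described by 4 further lists with 104 IDs, of which 60 were tested, 3 rose and 6 fell. The 9 calls are 15.0% of those tested, where 6.88% of all tested genes were called. The lists were chosen with earlier results of these data known, so these shares are not read as an excess. The counts moved with the settings: with no mean-variance trend none of the 5 called enzymes passed. Among 6 tested genes of retinoid binding and uptake none rose and 2 fell (median log2 fold change -1.90). rbp7a, a cellular retinol-binding protein gene, measured 37.7, 30.9, 40.6 and 92.6 TPM at 7 dpi, against 0.11, 4.53 and 5.86 TPM at 60 dpi. The groups did not overlap, and the log2 fold change was -3.75 ± 0.72 (SE, limma adjusted p = 0.0101). The other ID of this entry, RBP7 ENSDARG00000070486, was listed at 0 in all libraries but 60 dpi replicate 2, where it measured 29.3 TPM. SCARB1 (ENSDARG00000101557), a lipoprotein receptor that also takes up carotenoids, fell from 55.1 ± 45.6 to 6.16 ± 5.04 TPM (limma adjusted p = 0.0419), a call lost in 12 of 18 alternatives. rbp5, another cellular retinol-binding protein gene, had 83.2 ± 57.8 and 94.9 ± 21.9 TPM (limma adjusted p = 0.677). TTR, whose protein partners RBP4 in blood, was listed at 0 in all libraries but 60 dpi replicate 2, where it measured 4.37 TPM.

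Among 19 tested genes of other retinoid enzymes 3 rose and 2 fell (median log2 fold change -0.34). adh8a, an alcohol dehydrogenase gene, measured 1.66, 27.0, 34.9 and 20.8 TPM at 7 dpi, against 126, 164.5 and 171 TPM at 60 dpi. Every 60 dpi pool was above every 7 dpi pool, and the log2 fold change was 3.30 ± 0.75 (SE, limma adjusted p = 0.0216). The call was lost in 5 of 18 alternatives. The other ID of this entry, adh8b, had overlapping groups and a log2 fold change of -0.43 (limma adjusted p = 0.877). BCO2 (ENSDARG00000055722), whose enzyme cleaves carotenoids, rose from 5.32 ± 4.03 to 48.5 ± 37.2 TPM with a limma adjusted p of 0.0367, a call that 8 of 18 alternatives lost. adh5, an alcohol dehydrogenase that also clears formaldehyde, rose from 44.3 ± 20.9 to 133 ± 10.3 TPM with a limma adjusted p of 0.0466, a call that 12 of 18 alternatives lost. SDR16C5 (ENSDARG00000017794), a retinol-oxidising dehydrogenase gene, measured 340.0, 94.4, 177 and 428 TPM at 7 dpi, against 33.8, 45.8 and 28.7 TPM at 60 dpi. It was the most abundant gene of its list at 7 dpi and fell in every pool below the 7 dpi range, by 2.62 ± 0.48 on the log2 scale (SE, limma adjusted p = 0.00853). SDR16C5 ENSDARG00000016233 was low, with 3.82 ± 3.45 and 5.64 ± 4.29 TPM (limma adjusted p = 0.834). rdh12l, a retinol dehydrogenase family gene, fell from 40.5 ± 26.7 to 5.74 ± 5.64 TPM with a limma adjusted p of 0.0404, a call that 11 of 18 alternatives lost.

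**Figure D5:**
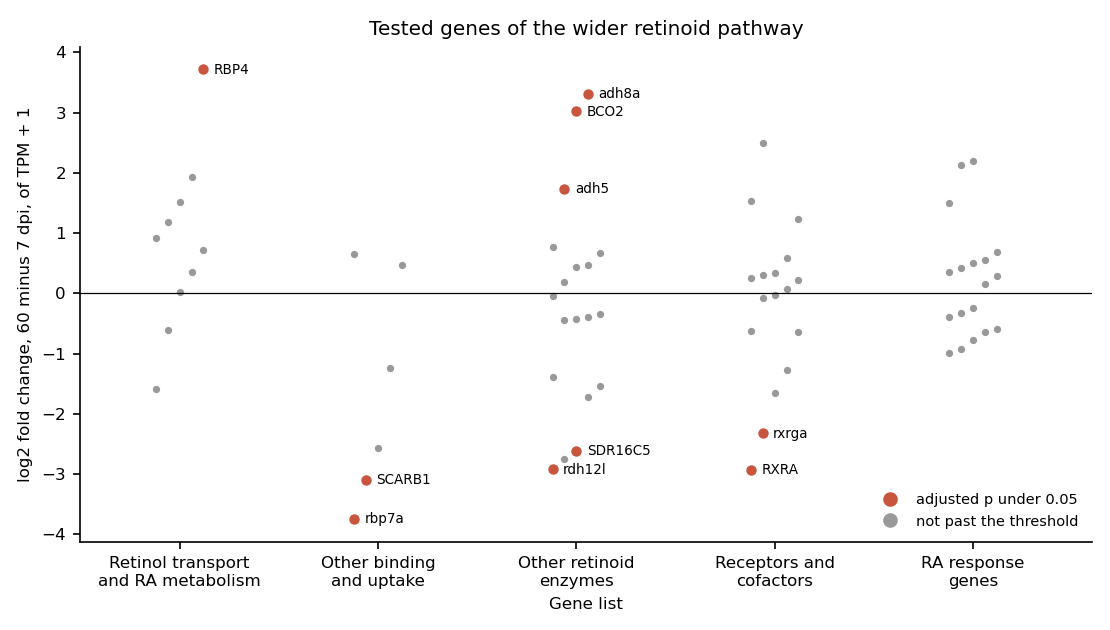
log2 fold change of TPM + 1, 60 minus 7 dpi, of each tested gene of the 10 retinoid members and of 4 further retinoid lists; red points passed an adjusted p of 0.05 and are named. Calls lie on both sides of 0 among other enzymes, below 0 among binding and uptake genes and among receptors, and the retinoic acid response list has none.

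Retinoic acid acts through RAR receptors, which bind DNA together with RXR partners, and corepressors such as NCOR1 silence their targets without ligand. Of 17 tested receptor and cofactor genes none rose and 2 fell, both RXR genes (median log2 fold change 0.07). rxrga measured 95.4, 54.1, 45.3 and 77.3 TPM at 7 dpi, against 13.3, 14.9 and 9.21 TPM at 60 dpi. The groups did not overlap, and the log2 fold change was -2.32 ± 0.44 (SE, limma adjusted p = 0.00919). RXRA ENSDARG00000057737 fell from 13.6 ± 5.07 to 1.003 ± 0.884 TPM with a limma adjusted p of 0.0432, a call that 11 of 18 alternatives lost. NCOR1 had 19.2 ± 5.55 and 55.3 ± 3.22 TPM and just missed the threshold (limma adjusted p = 0.0548). The RAR genes, named here as the receptors themselves and not by level, did not pass. RARG ENSDARG00000034117 had 19.3 ± 3.78 and 35.1 ± 30.2 TPM, raraa 9.52 ± 3.45 and 18.3 ± 14.5 TPM, and rarab 3.43 ± 2.79 and 3.70 ± 3.21 TPM (limma adjusted p = 0.894, 0.874 and 0.98). RARG ENSDARG00000054003 had 0.47 ± 0.94 and 7.04 ± 3.8 TPM (limma adjusted p = 0.081).

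Genes known to respond to retinoic acid in development gave no call. Of 36 IDs, among them HOX, MEIS, NR2F and GATA genes, 8 were at 0 in every library and 18 were tested (median log2 fold change 0.22). None passed with limma, where 6.88% of all tested genes were called. At an unadjusted limma p under 0.05, 2 were higher at 60 dpi and none lower, against 9.60% and 12.4% of all tested genes. With so few genes tested, the lack of a call does not show equal levels. TGM2 (ENSDARG00000074094), a transglutaminase gene, had 108 ± 34.3 and 66.0 ± 13.4 TPM, MEIS1 (ENSDARG00000012078) 61.3 ± 36.5 and 68.2 ± 17.3 TPM, and GATA5 29.6 ± 18.5 and 61.2 ± 20.3 TPM. Their limma adjusted p were 0.346, 0.774 and 0.297. The macrophage and leukocyte sums given above moved in the same direction as the 6 retinoid genes that fell, and their part in those falls was not tested.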

How the data were processed

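The authors deposited 1 table of TPM for 31388 gene IDs in 7 libraries, each column having nearly the same sum. RSEM 1.2.25, CASAVA 1.8.2 and cutadapt are named in the submitters' processing notes, as is the zebrafish build Zv9; aligner and annotation are not given in the sources used here. Per the labels' protocols, libraries were amplified from little RNA and read as 60-base single reads; such amplification can lose low transcripts at random. RSEM splits ambiguous reads between near-identical genes, which leaves paralog levels uncertain, although no member had the values of another ID. The supplied name table gave 25925 IDs a symbol; no coordinates or sequences were used.

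Groups came from sample titles. limma 3.58.1 (R 4.3.3, mean-variance trend) was fitted to log2(TPM + 1) with stage as the only term, on the 15130 genes reaching 1 TPM in 3 or more libraries, with two-sided p-values and Benjamini-Hochberg adjustment at 0.05, and was first tested on simulated data. The pools are the replicates; the labels do not say whether they share a fish stock or day. Members and lists were chosen with earlier results of these data known. List entries were matched like the members, so that DHRS7B came in with DHRS7. Named were all members, the called and the 3 most abundant genes of each retinoid list, the 3 nearest genes of abundant members and the 2 most abundant genes of each cell type list; the RAR genes and TTR were added after their values were seen, and 1 gene that the rule names is not reported here. Alternatives numbered 18. Python 3.11.15 served for tables (numpy 2.4.6, pandas 2.3.3) and for plots (matplotlib 3.10.9).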

Additional observations from a re-analysis of the deposited data

Results flagged for a closer look

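In 4 of 28 genes examined, 1 library at 7 dpi stood far from the other 3 by Dixon's criterion, which chance meets in about 1 of 20 groups. CRABP2 ENSDARG00000073978 measured 62.1 TPM in replicate 4 and 4.23 to 9.40 TPM in the other pools. rbp7a measured 92.6 TPM and rdh12l 80.2 TPM in the same replicate, against at most 40.6 and 31.6 TPM in the others. That replicate had the fewest detected genes at 7 dpi, 9844. CYP26A1 was at 0.05 TPM in replicate 2 and at 0 in the others, which is too low to describe.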

How the results depend on the processing

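RBP4 passed under all 18 alternatives, with log2 fold changes from 3.30 (quantile normalization) to 3.82 and limma adjusted p of 4.93e-06 to 0.0131; leaving out single libraries gave 3.54 to 3.82. Member calls numbered 2 in place of 1, with CYP26B1, under library quality weights and without 7 dpi replicate 1 (1 to 2 over the libraries left out in turn). Genes called, 1041 in all, numbered 596 with no minimum, 477 with no mean-variance trend, 1659 with quality weights and 581 to 1181 when single libraries were left out (653 without 7 dpi replicate 2, 581 without replicate 3, 583 without 60 dpi replicate 2).

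Calls in the further lists were less stable. Binding and uptake genes gave 1 call in place of 2 with pseudocount 0.5, no minimum, no trend, quality weights, or the replicates 4 left out, and 1 to 3 without single libraries. Other enzymes gave 3, 1, 0 and 1 calls in place of 5 with pseudocount 0.5, no minimum, no trend, and the replicates 4 left out, and 1 to 4 without single libraries. Receptors gave 1 in place of 2 with no minimum or the replicates 4 left out, and 1 without each single library in turn. The direction of DHRS3 ENSDARG00000044803, near 0, turned to -0.084 with pseudocount 0.5, -0.071 with quantile normalization, -0.21 when rescaled over IDs with a symbol, -1.24 with quality weights and -2.08 without the replicates 4 (-1.36 to 1.1 without single libraries). CRABP2 ENSDARG00000030449 ranged from -0.17 to 1.05 without single libraries, below 0 without 60 dpi replicate 4. The cause of these changes was not tested. Without a read depth, values near 0 cannot be graded.

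Deviations of same-numbered pools from their group means had correlations of 0.0054, 0.0145 and 0.028, and pools of unlike number had -0.024 to 0.019. Replicates 1, 2 and 4 at 7 dpi correlated best with their own number, as did 60 dpi replicates 2 and 4 but not 1. All these values were near 0, so the numbers were not taken as pairs. The fit with the replicate number as a block left out 7 dpi replicate 3, whose number is missing at 60 dpi. In it 347 genes passed, among them RBP4 as the 1 member, with 1 binding gene, 2 enzymes and 0 receptors. With that pool left out and no block, 581 genes passed.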

Other observations

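Markers of other cell types in the same pools also differed between the stages. Of the blood cell lists, neutrophil IDs, led by NCF1 and lyz, summed to 254 to 389 TPM at 7 dpi and 24.3 to 69.4 TPM at 60 dpi, with 2 of 7 tested lower and none higher. Lymphocyte IDs, led by nkl.2 and ighm, summed to 191 to 702 and 18.1 to 118 TPM, with 4 of 8 tested lower and none higher. Red cell and thrombocyte IDs, led by the globin genes hbaa1 and hbaa2, summed to 3268 to 7352 and 703 to 6127 TPM, ranges that overlap, with 2 of 11 tested lower and none higher. Pericyte and mural cell IDs, led by rgs5b and TAGLN, summed to 498 to 1282 and 1214 to 1586 TPM, ranges that overlap. Of 10 tested 2 were higher and none lower, while 2 were higher and 3 lower at an unadjusted limma p under 0.05. Endothelial IDs, led by NFATC1 and FLI1, summed to 78.8 to 206 and 157 to 267 TPM, and pigment cell and retina IDs, led by MITF and the visual-cycle gene RPE65, to 4.35 to 46.8 and 6.19 to 41.9 TPM. None of the tested genes of these last lists passed with limma (3 endothelial genes, all higher, and no pigment or retina gene at an unadjusted p under 0.05). Whether these cell types bear on the retinoid genes was not tested.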
